A study of Mus musculus with 12 samples.

Results

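The quantity described here is a difference of 2 effects on RNA levels in mouse embryonic stem cells: the effect of transient mDux expression (mDux against control) minus the effect of doxycycline in an inducible mDux line (doxycycline against none). Its members were found by joining the transient and the unsorted tables on the feature identifier, which left 26359 features, 24886 genes and 1473 repeat families, out of 29264 and 29082 in the tables. The contrast uses 8 of the 12 libraries of the series, 2 in each of 4 groups, called A and B within a group. Neither effect was tested alone. A negative log2 difference means that the ratio of mDux to control was smaller than the ratio of doxycycline to none, and a positive one that it was larger. Features with a negative difference are called lower, and those with a positive one higher, always for the transient effect relative to the doxycycline effect.

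All groups were embryonic stem cells grown on gelatin with serum, leukemia inhibitory factor and 2i, the kinase inhibitors CHIR99021 and PD0325901. In the transient set a codon-altered mDux transgene (mDuxCA, without a tag) or a control was expressed for 24 h, and libraries were sequenced single-end at 50 bp. In the stable set the same transgene with a 3xHA-tag sat behind a doxycycline-responsive promoter in an integrated lentivirus. These cells also carried a green fluorescent reporter driven by the retrovirus MERVL (TRE::3xHA-mDux; MERVL::EGFP), came from drug-selected single-cell clones, and were held in Puromycin and G418. They were harvested unsorted after 24 h of doxycycline or without it, and sequenced paired-end at 125 bp. The transient controls carry mDuxCA in one label field but are called control in their titles and columns, so the sign of the transient effect rests on the titles. Delivery, tag, clone and read format all change together between the sets and cannot be told apart in the contrast, and no group had doxycycline without the transgene. Separate cultures behind libraries A and B are not stated, so the p-values rest on a spread that may be technical.

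mDUX is a double-homeobox transcription factor made in the early embryo around the time its own genome is first transcribed. It binds and activates cleavage-stage genes, which are transcribed briefly at that time, and the long terminal repeats of MERVL, a retrovirus-derived repeat. In stem cell cultures a small fraction of cells enters a 2-cell-like state with these transcripts on, and mDUX expression raises that fraction. In RNA from a whole culture, fewer responding cells and less RNA per responding cell cannot be told apart.

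The promoters of 3 genes on which the results turn are shown because the contrast was far from 0 for each and because a short motif was found in each. Coordinates and letters are from RefSeq on GRCm38.p6, each window runs from 250 bases before the start to 50 after it, the letters run 5' to 3' on the gene's strand, and capitals mark the motif match. Zscan4d, a SCAN and zinc-finger gene used as a marker of the 2-cell-like state, lies on the minus strand with its window at chr7:11166099-11166398. Duxf3, the endogenous Dux gene, lies on the minus strand with its window at chr10:58233040-58233339. Hspa1a, an inducible HSP70 chaperone gene, lies on the minus strand with its window at chr17:34972107-34972406.
Zscan4d promoter: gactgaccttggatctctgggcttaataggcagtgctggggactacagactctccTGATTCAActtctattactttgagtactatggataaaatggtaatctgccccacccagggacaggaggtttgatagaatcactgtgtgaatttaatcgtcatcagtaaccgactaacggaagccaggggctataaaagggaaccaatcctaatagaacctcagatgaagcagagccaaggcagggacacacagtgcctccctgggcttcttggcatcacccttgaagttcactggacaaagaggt
Duxf3 promoter: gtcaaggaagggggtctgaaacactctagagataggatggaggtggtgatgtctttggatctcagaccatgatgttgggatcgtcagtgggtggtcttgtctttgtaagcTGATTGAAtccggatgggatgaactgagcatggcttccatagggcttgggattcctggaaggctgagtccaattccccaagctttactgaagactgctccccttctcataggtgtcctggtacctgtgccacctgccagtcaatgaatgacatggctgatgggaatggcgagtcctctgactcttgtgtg
Hspa1a promoter: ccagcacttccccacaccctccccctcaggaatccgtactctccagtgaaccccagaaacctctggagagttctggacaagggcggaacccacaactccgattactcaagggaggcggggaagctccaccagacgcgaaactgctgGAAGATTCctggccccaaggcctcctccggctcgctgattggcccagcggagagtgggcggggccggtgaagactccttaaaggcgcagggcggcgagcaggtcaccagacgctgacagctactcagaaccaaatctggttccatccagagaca

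Both strands were searched for TTNAATCA, a homeodomain-type motif, and for GAANNTTC, a pair of heat shock element units. The motifs were chosen after the values were seen. In the Zscan4d and Duxf3 windows the capitals mark TTNAATCA on the opposite strand, 195 and 140 bases before the start. In the Hspa1a window they mark GAANNTTC, 104 bases before it. Of 32851 RefSeq promoters of this length, 2.87% held TTNAATCA and 7.86% held GAANNTTC. Among the cleavage-stage genes described below, 44 had a RefSeq promoter, and 11 of these held TTNAATCA and 2 held GAANNTTC. Many of these genes belong to families of near-identical members, whose promoters may share sequence, so the matches may not be separate. Among 15 heat shock and protein folding genes with a promoter, none held TTNAATCA and 6 held GAANNTTC. A match is a description of letters and not a binding site.

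Total counts per library ran from 14365741 to 21988401. Repeat families took 8.47% and 8.57% of counts in the mDux libraries, 10.12% and 6.74% in the controls, 33.49% and 34.41% with doxycycline and 15.35% and 15.88% without. One library stood apart: control A had 2.35% of its counts in the rRNA repeat against 0.0767% in control B, and the chi-square per degree of freedom between these controls was 30.1 against 1.81 to 3.79 within the other groups. Variation between libraries of a group beyond counting error (coefficient of variation) was 10.9% for the transient and 3.48% for the stable set. The joint fit of both sets, on which the tests rest, gave 8.93%, so its standard errors follow neither set's own spread. Pou5f1, Sox2, Nanog, Esrrb and Zfp42, which mark embryonic stem cells, stood between 216 and 1380 CPM (read counts relative to all gene reads of a library, with scaling within each table) in all 8 libraries.

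Of 17152 genes tested, 3112 (18.1%) were lower and 2365 (13.8%) were higher for the transient effect at an adjusted p below 0.05, 31.9% in either direction (quasi-likelihood test of edgeR, Benjamini-Hochberg adjustment over all genes). The lower side held the large differences. With a minimum size of 2-fold, 1893 genes (11.0%) were lower and 715 (4.17%) higher, and 482 lower but 11 higher genes passed a log2 difference of 4 in size. The median was -0.01 over all genes, -1.31 over those called lower and 0.76 over those called higher, with a median standard error of 0.23. Calls split into 43.2% higher and 56.8% lower here, but into 66.3% and 33.7% with gene totals as the only scaling and 61.7% and 38.3% with scaling factors estimated over both tables together, settings that moved the median of all genes to 0.23 and 0.17. The count of higher genes fell to 1432 without doxycycline B and to 1562 without uninduced B.

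The order of the libraries describes whether a difference was one of size or of direction, without a test of either effect. With 2 libraries per group such an order can arise without any effect, and how often it would was not estimated. Among the 3112 lower genes, 1063 (34.2%) had both mDux libraries above both controls and both doxycycline libraries above both without. This order held for 11.9% of all genes tested. Another 1574 (50.6%, against 23.9% of all genes tested) had doxycycline libraries above those without while the transient groups overlapped. Among the 2365 higher genes, 1482 (62.7%, against 26.9%) had doxycycline libraries below those without while the transient groups overlapped. Both treated groups lay below their controls in 410 higher genes (17.3%, against 7.82%). In opposite order, 792 genes (4.62% of those tested) had mDux above control and doxycycline below none, and 459 of them (2.68%) were called. In the other opposite order there were 768 genes (4.48%), of which 467 (2.72%) were called.

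Cleavage-stage genes were the list farthest from 0. Of 87 listed genes 75 were joined and 73 tested, and 64 of these were lower, none higher, against 18.1% lower over all genes. Their median log2 difference was -6.29, or -5.86 when the genes with a group at 0 reads were set at their bound, against -0.01 over all genes. The list was drawn up with earlier results of these data known, so its direction is no independent evidence. All 5 tested Zscan4 genes and all 5 Usp17l deubiquitinase genes were lower, as were 6 of 7 genes of the Tcstv cluster, 9 of 10 Eif1a-like genes, 8 of 8 Pramel genes, 10 of 14 transcription factor genes and 16 of 17 single-copy genes, while 2 of 4 Trim genes were (median -2.2). Members of the Zscan4, Usp17l, Tcstv and Eif1a-like families are near-identical in sequence, and how multi-mapped reads were counted was not found in the sources, so values of single members are uncertain.

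Zscan4d (ENSMUSG00000090714, chromosome 7, 11161374 to 11166159, minus strand, GRCm38) stood at 386 and 395 CPM in the mDux libraries, 32.5 and 32.0 in the controls, 4130 and 4210 with doxycycline, and 1.98 and 2.79 without. Both treated groups lay above their own controls with no overlap, and the control level was above that of the uninduced line, though the tables were scaled separately. The log2 difference was -7.16 ± 0.16 (standard error, adjusted p 5.2e-12). Zfp352, a zinc-finger gene of the 2-cell stage, stood at 80.2 and 81.6 CPM with mDux and 6.68 and 5.72 in the controls. With doxycycline it stood at 459 and 448 CPM, and without it at 0.265 and 0.424. Its difference was -6.60 ± 0.22 (adjusted p 1.55e-10), again with both treated groups above their controls. Tcstv3, of a cluster of 2-cell-stage genes, differed by -6.78 ± 0.31 and Usp17lb, a deubiquitinase gene, by -6.11 ± 0.15. Mean control levels of Tcstv3 and Usp17lb were 17.2 and 5.02 times those without doxycycline, again with separate scaling. Their transient gains were 13.7% and 6.69% of the doxycycline gains in CPM. The part of the starting level in the log2 differences of these genes was not tested.

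Duxf3, the endogenous counterpart of the transgene, was read at 1.95 and 3.26 CPM with mDux, 0.454 and 0.582 in the controls, 48.3 and 59.5 with doxycycline, and 0.331 and 0.182 without. Its log2 difference was -5.41 ± 0.68 (adjusted p 5.07e-05). The codon-altered transgene was not a feature analysed here, so its own level in the sets was not compared. Lmx1a, a LIM-homeodomain gene, differed by -6.66 ± 0.28 and Snai1, a zinc-finger repressor gene, by -4.78 ± 0.30. Obox6, an oocyte-specific homeobox gene, stood at 1.85 and 1.44 CPM with mDux, 1.30 and 1.02 in the controls, 64.5 and 54.4 with doxycycline and 1.79 and 1.94 without, a difference of -4.46 ± 0.37. Its mDux libraries lay just above the controls, whereas its doxycycline libraries lay far above those without. Closest to 0 among the Pramel genes, looked up after the values were seen, were Pramef8 at -1.42 ± 0.14 and Pramel6 at -1.72 ± 0.25, both called. Zfp558 (0.33 ± 0.34, adjusted p 0.506) and Zfp750 (-0.25 ± 0.34, adjusted p 0.61) did not pass the test.

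The 8 genes with the lowest fitted difference among those with at least 5 CPM on average had no read in either uninduced library. Their fitted values depend on the prior count, so each is given as a bound against 3 counts over that group. Being upper limits, these bounds do not settle whether the 8 genes rank below Hspa1a (-8.32) or Zscan4d (-7.16). Gm11238 stood at 2.01 and 2.70 CPM with mDux, 0.324 and 0.388 in the controls, and 52.9 and 49.9 with doxycycline, a log2 difference of at most -6.38. The predicted gene Gm11487 had a difference of at most -6.25 and Fam90a1a of at most -6.06. For Olfr376, named as an olfactory receptor gene, it was at most -5.75, for AF067063 of the Tcstv cluster at most -5.55, and for Tmem212 at most -5.23. Zfp353-ps, annotated as a copy of Zfp352, had at most -5.16 and Olfr787 at most -5.08. All 8 had both treated groups above their controls. Of 33 tested olfactory receptor genes 10 (30.3%, against 18.1% over all genes) were lower and none higher.

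On a linear scale the transient gain was a small share of the doxycycline gain. The 73 tested cleavage-stage genes summed to 2470 and 2580 CPM with mDux, 372 and 362 in the controls, 49900 and 50800 with doxycycline and 157 and 159 without, so the transient gain of 2160 CPM was 4.29% of the doxycycline gain of 50200 CPM. Over 1660 genes with both treated groups above their controls that passed the filter in each table, the transient gain was a median 14.7% of the doxycycline gain (quartiles 6.98% and 33.2%). For the 64 cleavage-stage genes among them it was 5.38% (2.58% and 9.38%). Zscan4d reached 8.59%, Zfp352 16.5%, Zfp353-ps 40.0% and Hspa1a 0.586%. CPM is scaled within each table, so these shares are descriptions with no test.

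**Figure D1:**
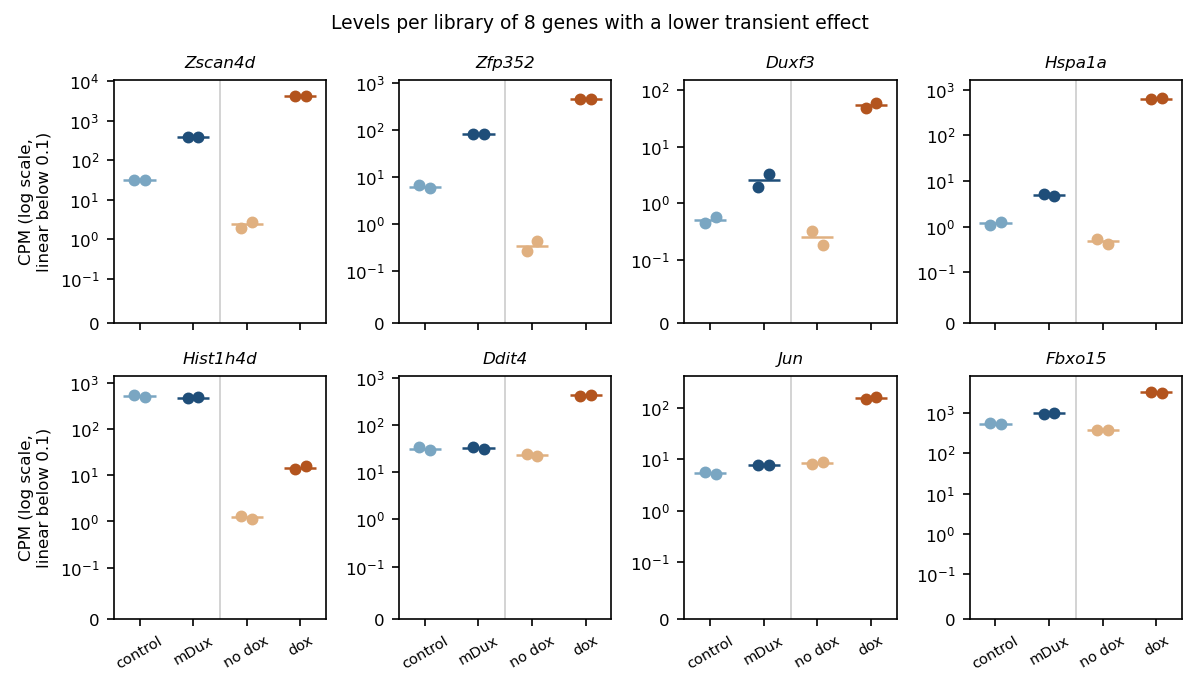
CPM per library (points, log axis, linear below 0.1) with the group mean (line) for 8 genes whose transient effect was lower, in control and mDux libraries of the transient set and in libraries without and with doxycycline of the stable set. Zscan4d goes from 32.5 and 32.0 CPM to 386 and 395 CPM in the transient set and from 1.98 and 2.79 CPM to 4130 and 4210 CPM in the stable set, while Hist1h4d starts at 552 and 492 CPM in the controls and at 1.32 and 1.15 CPM without doxycycline.

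Most repeat families stood on the lower side. Of 1303 repeat families tested, 950 (72.9%) were lower and 10 (0.767%) higher, 73.7% in either direction, and with a minimum of 2-fold 760 (58.3%) and 5 (0.384%). Their median log2 difference was -1.27 (quartiles -1.93 and -0.69), against -0.01 over genes. By class, 483 of 613 LTR families, 127 of 153 LINE families, all 37 SINE families and 116 of 178 DNA transposon families were lower. Shares were smaller for tRNA (15 of 34), Gypsy (4 of 13), satellite (2 of 6) and snRNA (2 of 7) families. Within LTR elements the medians were -1.55 for ERVL, -1.51 for ERVL-MaLR, -1.48 for ERVK and -1.40 for ERV1, and L1 elements had -1.45. The same limit on multi-mapped reads holds for repeat families.

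MERVL-int, the coding interior of MERVL, stood at 2410 and 2420 CPM with mDux, 249 and 276 in the controls, 81300 and 84000 with doxycycline and 221 and 240 without. Starting levels of the sets were close, though scaled separately, and both treated groups lay above their controls. The difference was -5.29 ± 0.12 (adjusted p 1.59e-12), and the transient gain was 2.61% of the doxycycline gain. MT2_Mm, the long terminal repeat of MERVL, had 354 and 375 CPM with mDux, 49.2 and 44.1 in the controls, 18300 and 18000 with doxycycline and 86.4 and 100 without, a difference of -4.63 ± 0.14. ORR1A3-int, a MaLR element, differed by -4.78 ± 0.14 and ERVB4_3-LTR_MM, an ERVK repeat, by -4.68 ± 0.44.

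The L1 subfamily L1Md_T, the ERVK element IAPEz-int and the satellite GSAT_MM were each called lower. L1Md_T, a young L1 subfamily, had 366 and 405 CPM with mDux, 323 and 260 in the controls, 6510 and 6340 with doxycycline and 1050 and 1120 without, a difference of -2.16 ± 0.15. IAPEz-int, an intracisternal A particle element, had 47.4 and 44.8 CPM with mDux, 33.2 and 28.2 in the controls, 1580 and 1570 with doxycycline and 283 and 300 without, a difference of -1.84 ± 0.13. In GSAT_MM, the major satellite of pericentromeric heterochromatin, the mDux libraries (40.8 and 60.7 CPM) lay between the controls (72.2 and 28.8), while doxycycline libraries (86.5 and 104) lay above those without (1.72 and 1.33). Its difference was -5.94 ± 0.92 (adjusted p 0.00375). HY1, a small RNA repeat, stood at 2.43 and 2.26 CPM with mDux, 0.324 and 0.436 in the controls and 28.1 and 29.8 with doxycycline, with 0.0662 and 0 without, too few reads for a fold.

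The 6 highest repeat families with 5 CPM or more were all LTR elements, and 4 of them belonged to ERVK. ETnERV3-int, of the early transposon group, had 144 and 147 CPM with mDux, 104 and 121 in the controls, 485 and 429 with doxycycline and 714 and 738 without. Its groups moved in opposite order, and the difference was 1.04 ± 0.13 (adjusted p 9.39e-06). MMETn-int, of the same group, differed by 0.71 ± 0.11, ERVB7_1-LTR_MM by 0.90 ± 0.17 and MER34B-int by 0.74 ± 0.20, all in opposite order. ETnERV-int (0.33 ± 0.12) lost its call without any 1 of mDux B, doxycycline B and the uninduced libraries. RLTR1B-int (0.29 ± 0.11) lost its call without any 1 of 5 libraries, the exceptions being both controls and doxycycline A.

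**Figure D2:**
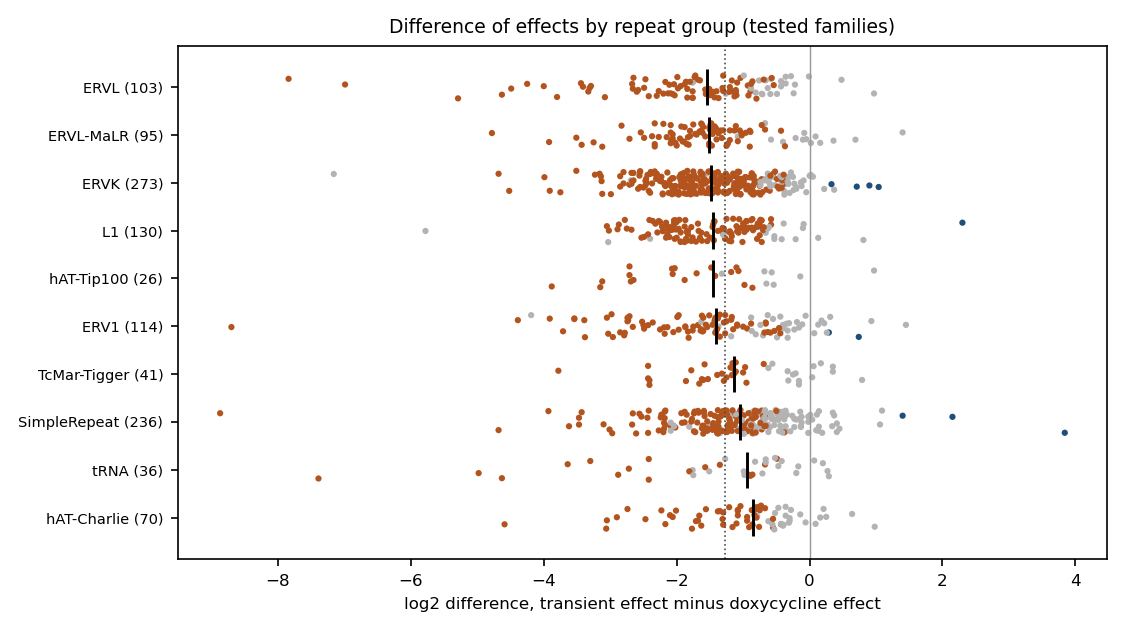
Log2 difference of effects (x axis) for each tested repeat family (points) in the 10 repeat groups with at least 25 families, with brown for called lower, blue for called higher, grey for not called, a black bar at each group's median and a dotted line at the median of all families, -1.27. ERVL, with a median of -1.55 over 103 families, holds MERVL-int, and the few blue points lie mainly in ERVK and simple repeats.

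Of 18 genes for heat shock and protein folding, 10 (55.6%, against 18.1% over all genes) were lower. Only Xbp1 (5.56%, against 13.8%) was higher, and the median was -0.68. Hspa1a (ENSMUSG00000091971, chromosome 17, 34969190 to 34972156, minus strand) stood at 5.07 and 4.64 CPM with mDux, 1.10 and 1.26 in the controls, 607 and 647 with doxycycline and 0.529 and 0.424 without. Both treated groups lay above their controls and the difference was -8.32 ± 0.30 (adjusted p 2.72e-10). Its neighbour Hspa1b, which encodes nearly the same protein, differed by -6.62 ± 0.27, and reads of the pair may be shared. Dnajb1, an HSP40 co-chaperone, differed by -1.21 ± 0.13, Hspa8, the constitutive HSC70 gene, by -1.34 ± 0.18, and Herpud1, of degradation from the endoplasmic reticulum, by -1.91 ± 0.16. Hspa5, the chaperone of the endoplasmic reticulum, did not pass the test (0.28 ± 0.11, adjusted p 0.0727), and Xbp1, a factor of the unfolded protein response, was higher by 0.85 ± 0.14. Without control A 4 genes of the list were higher, and with gene totals as the only scaling 9 were lower and 5 higher.

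Replication-dependent histone genes have mature transcripts that normally end in a stem-loop and lack a poly(A) tail. They were lower in 44 of 48 cases (91.7%, against 18.1% over all genes) with none higher. Their median was -3.82 (-3.73 with bounds). Here the sets started far apart. The list summed to 5010 and 4900 CPM with mDux, 4400 and 5010 in the controls, 343 and 387 with doxycycline and 32.7 and 23.9 without. The transient groups overlapped while doxycycline libraries lay above those without, with gains of 246 CPM in the transient and 336 CPM in the stable set. Hist1h2bj differed by -5.62 ± 0.56 (74.6 and 67.7 CPM with mDux, 48.5 and 81.5 in the controls, 15.3 and 16.1 with doxycycline, 0.331 and 0.242 without). Hist1h1e, a linker histone gene, differed by -4.44 ± 0.29 and Hist1h4b, an H4 gene, by -5.34 ± 0.28. Libraries were made from poly(A) RNA in both sets, yet some small RNA genes were read almost only in the transient set. Rny3 had 4187 reads over the 4 transient libraries and 1 over the 4 stable ones, Rprl2 2921 and 0, and the snRNA gene Gm22973 9676 and 9. Whether the sets captured RNA without poly(A) tails unequally was not tested, nor was the part of the starting level in these log2 differences. Of 11 histone variant genes, most of which carry poly(A) tails, 3 (27.3%) were lower and 2 (18.2%) higher, near the 18.1% and 13.8% over all genes. Those lower were H1fx (-3.07 ± 0.26), H1f0 (-1.78 ± 0.16) and H2afx (-1.67 ± 0.14). H2afy and Cenpa were higher by 0.42 and 0.36. Without control A or control B 5 of the variants were lower, and none of the list was higher without mDux A, mDux B, doxycycline B or either uninduced library.

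The integrated stress response, through which ATF4 raises genes for amino acid supply and recovery, was lower in 20 of 28 genes (71.4%, against 18.1% over all genes) and higher in 1 (3.57%, against 13.8%), with a median of -0.85. Ddit4, an inhibitor of mTORC1, stood at 34.0 and 30.1 CPM with mDux, 33.2 and 29.0 in the controls, 409 and 429 with doxycycline and 24.7 and 21.7 without. The transient groups overlapped, and the difference was -4.13 ± 0.15 (adjusted p 2.72e-10). Atf3, a stress-induced transcription factor, differed by -3.78 ± 0.36, Ppp1r15a, which restarts translation by directing eIF2 dephosphorylation, by -2.67 ± 0.12, and Atf4 itself by -0.97 ± 0.11. By role, 5 of 7 transcription factors, 9 of 10 regulators and effectors and 6 of 11 amino acid genes were lower. Slc7a3, a cationic amino acid transporter gene, was the 1 higher gene at 1.41 ± 0.14, with doxycycline libraries at 37.9 and 39.7 CPM below 97.1 and 100 without. Without control B, 3 genes of the list were higher.

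Immediate early genes, switched on within minutes of a signal, were lower in 11 of 17 cases (64.7%, against 18.1% over all genes) and higher in none, with a median of -0.86. Under both other scalings 8 were lower and 1 higher. Jun, a subunit of AP-1, stood at 7.71 and 7.84 CPM with mDux, 5.57 and 5.24 in the controls, 147 and 167 with doxycycline and 8.01 and 8.73 without. It differed by -3.70 ± 0.18 with both treated groups above their controls. Fos, its partner, differed by -4.09 ± 0.30 and Ier5 by -3.81 ± 0.33. Of 13 genes of FGF and ERK output, 6 (46.2%) were lower and 3 (23.1%) higher, against 18.1% and 13.8% over all genes. The phosphatase genes Dusp4 (-2.76 ± 0.35) and Dusp5 (-2.63 ± 0.25) and the feedback inhibitor Spry1 (-1.86 ± 0.26) were lower. The ETS factor genes Etv1 (1.22 ± 0.28), Etv4 (1.09 ± 0.19) and Etv5 (1.09 ± 0.11) were higher, and 4 of the 13 were not called. The higher count of this list was 6 without control A, and the list stood at 5 lower and 5 higher under both other scalings.

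Pluripotency genes stood mostly on the higher side: 21 of 35 were higher and 5 lower, against 13.8% and 18.1% over all genes, with a median of 0.48. All 3 core factors were higher. Pou5f1, the gene of OCT4, stood at 795 and 769 CPM with mDux, 651 and 820 in the controls, 470 and 451 with doxycycline and 818 and 797 without. Sox2 stood at 396 and 390, 407 and 409, 224 and 216, and 414 and 421 CPM in the same order. Nanog stood at 660 and 683 CPM with mDux, 675 and 649 in the controls, 833 and 768 with doxycycline and 1270 and 1310 without. The doxycycline libraries lay below those without for all 3 genes, while the transient groups overlapped for Pou5f1 and Nanog and mDux lay just below control for Sox2. The differences were 0.90 ± 0.14, 0.87 ± 0.11 and 0.71 ± 0.11 (adjusted p 0.00031, 3.52e-05 and 0.000325).

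Among naive pluripotency factors 7 of 15 were higher and 5 lower. Zfp42, the gene of REX1, differed by 0.66 ± 0.11 and Esrrb, an orphan nuclear receptor, by 0.74 ± 0.11. Klf4, a Kruppel-like factor, did not pass the test at 0.05 ± 0.12 (adjusted p 0.787). The 5 lower genes were Gbx2 (-1.68 ± 0.21), Klf5 (-1.50 ± 0.24), Sall4 (-1.38 ± 0.11), Klf2 (-0.45 ± 0.12) and Zfp281 (-0.37 ± 0.11). Sall4, a zinc-finger factor of stem cells and oocytes, stood at 447 and 428 CPM with mDux, 394 and 423 in the controls, 748 and 741 with doxycycline and 274 and 260 without. The lower count was 3 without mDux B, doxycycline B or uninduced B, and 3 under both other scalings. Among signalling and marker genes 11 of 17 were higher and none lower. Fgf4, the growth factor that primes stem cells for differentiation, stood at 216 and 217 CPM with mDux, 239 and 249 in the controls, 189 and 178 with doxycycline and 453 and 456 without, a difference of 1.14 ± 0.11. Il6st, the receptor subunit for leukemia inhibitory factor, differed by 1.38 ± 0.12 and Utf1, a chromatin-bound stem cell factor, by 1.39 ± 0.17.

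**Figure D3:**
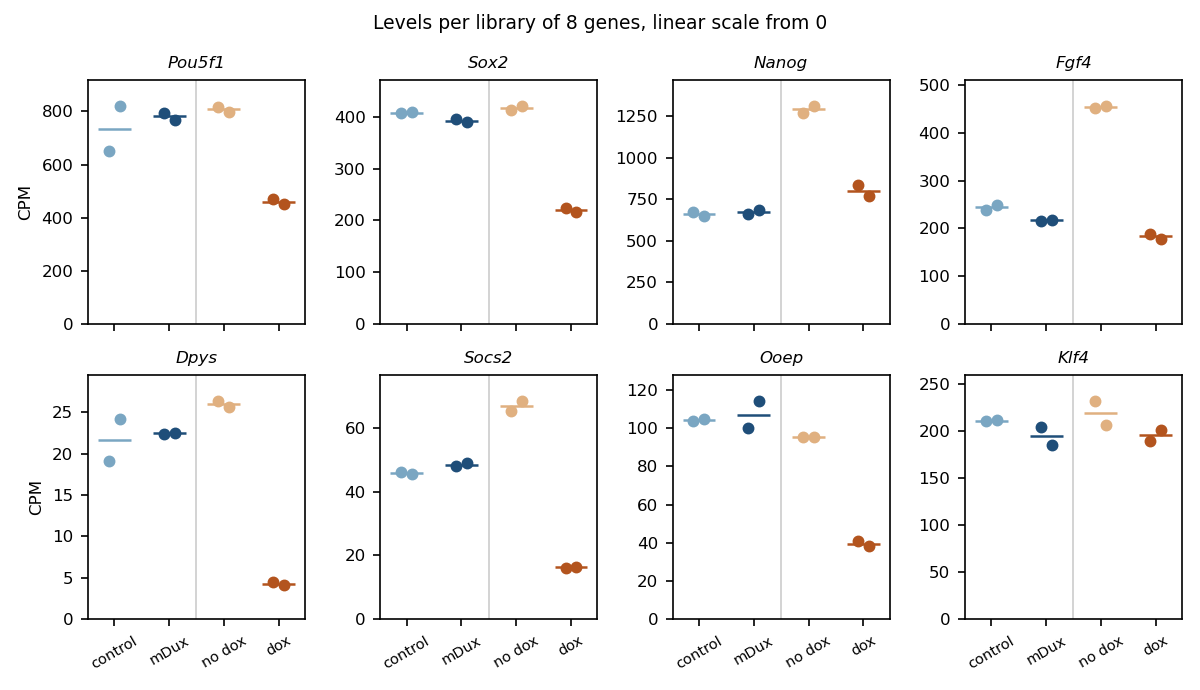
CPM per library (points, linear axis from 0) with the group mean (line) for 7 genes whose transient effect was higher and for Klf4, in control and mDux libraries of the transient set and in libraries without and with doxycycline of the stable set. Pou5f1 stands at 818 and 797 CPM without and at 470 and 451 CPM with doxycycline, while its mDux values of 795 and 769 lie within the controls' 651 to 820, and Klf4 shows no such step.

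Of 11 tested genes linked to Dppa2 and to oocytes, 3 (27.3%) were lower and 1 (9.09%) higher, shares near the 18.1% and 13.8% over all genes. Fbxo15, an F-box gene of stem cells, stood at 960 and 1020 CPM with mDux, 549 and 535 in the controls, 3280 and 3190 with doxycycline and 383 and 373 without, a difference of -2.23 ± 0.11. Dppa2, which primes the promoters of cleavage-stage genes, differed by -2.40 ± 0.12, with 92.1 and 99.2, 64.6 and 65.4, 268 and 263, and 33.9 and 34.4 CPM in the same order. Nlrp4f, an oocyte-linked NLR gene, differed by -1.12 ± 0.18. Ooep, of the maternal complex under the oocyte membrane, was higher by 1.31 ± 0.13. Dppa3, the gene of the maternal factor STELLA, did not pass the test (-0.53 ± 0.34, adjusted p 0.258), though both treated groups lay above their controls at 3.22 and 4.25 against 1.30 and 1.21 CPM and at 68.0 and 61.6 against 17.7 and 12.6. Of 24 germline genes, active in meiosis and piRNA defence, 11 (45.8%, against 18.1% over all genes) were lower and 1 (4.17%, against 13.8%) higher. Stk31 differed by -2.88 ± 0.17. With DESeq2 and under both other scalings 7 of the list were lower.

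Of 35 silencers of retroviruses, 7 were lower and 8 higher, against 18.1% and 13.8% over all genes, with a median of 0.02. The other 20 were not called. But 4 were lower and 16 higher (median 0.27) with gene totals as the only scaling, and 6 lower and 14 higher (median 0.20) with scaling over both tables. Zfp809, which recruits TRIM28 to retroviral DNA, stood at 74.0 and 77.4 CPM with mDux, 44.4 and 38.2 in the controls, 322 and 322 with doxycycline and 51.7 and 59.0 without, a difference of -1.66 ± 0.14. Daxx, a chaperone of histone H3.3, differed by -1.08 ± 0.11, while Mga, of the PRC1.6 repressor, was higher by 1.06 ± 0.12. Trim28 itself differed by -0.60 ± 0.16, a call lost with gene totals as the only scaling and without mDux B, doxycycline B or uninduced B. The count of higher silencers was 3 without doxycycline B, 5 without mDux B or either uninduced library, and 14 without control A. Without control B the lower count was 11.

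Cell cycle genes were split into G1/S and G2/M lists, and the difference between the lists was not tested. Of 25 genes for G1/S and replication, 11 (44.0%) were higher and 4 (16.0%) lower, against 13.8% and 18.1% over all genes. Ccnd3 (1.02 ± 0.17), Mcm6 (0.85 ± 0.11) and Cdc6 (0.79 ± 0.14) were the highest of those with 5 CPM or more. The count of higher genes was 6 without doxycycline B and 7 without mDux A or uninduced A. Of 25 genes for G2/M, 10 were lower and 3 higher, against 18.1% and 13.8% over all genes, and 12 were not called. The higher share was thus near that over all genes. Among the lower ones the spindle kinase gene Aurka differed by -1.07 ± 0.13 and the kinetochore motor gene Cenpe by -0.99 ± 0.14. Without mDux B, doxycycline A, doxycycline B or either uninduced library 1 G2/M gene was higher, and without control B there were 7. Of 24 p53 targets 6 (25.0%) were lower and 6 (25.0%) higher, against 18.1% and 13.8% over all genes. Btg2 (-2.32 ± 0.13), Pmaip1 (-1.49 ± 0.16) and Plk2 (-1.46 ± 0.12) led the lower ones and Perp (1.14 ± 0.21) the higher ones. The higher count fell without mDux B, doxycycline A, doxycycline B or uninduced A. The p53 median of -0.09 turned to 0.16 and 0.10 under the other scalings, 0.02 without mDux B and 0.01 without control B, and that of G2/M from -0.19 to 0.06 with gene totals as the only scaling, where 8 G2/M genes were lower and 6 higher.

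Housekeeping lists had medians between -0.32 (glycolysis) and 0.18 (oxidative phosphorylation). Shares over all genes were 18.1% lower and 13.8% higher. Beside these stood 25.0% and 10.0% for translation initiation, 28.1% and 9.38% for splicing factors, and 50.0% and 5.56% for glycolysis. Of 38 ribosomal protein genes none was lower and 3 were higher, with a median of -0.08 that turned to 0.17 and 0.11 under the other scalings. Without control A 15 were lower, without control B 4 were lower and 9 higher, and without mDux B, doxycycline B or uninduced A none was higher. Of 32 splicing factor genes 9 were lower, with Rbm25 at -2.25 ± 0.17 and the kinase gene Clk1 at -1.07 ± 0.11, and 3 higher. The splicing counts were 10 higher without control A, 14 lower without control B, and 6 lower and 8 higher with gene totals as the only scaling, under which the median turned from -0.09 to 0.16, as it did to 0.09 with scaling over both tables. Translation initiation had 5 of 20 lower and 2 higher, but 2 lower and 4 higher under both other scalings, with 10 lower without control B and 3 without mDux A or uninduced A. Glycolysis had 9 of 18 lower and 1 higher, but 6 lower and 5 higher with gene totals as the only scaling and 7 lower and 4 higher with scaling over both tables, with the glucose transporter gene Slc2a1 at -1.89 ± 0.14. Of 24 genes of oxidative phosphorylation 2 were lower and 2 higher. Among them Cycs, the gene of cytochrome c, stood at 23.2 and 22.4 CPM with mDux, 10.0 and 8.29 in the controls, 117 and 118 with doxycycline and 7.54 and 9.76 without, a difference of -2.43 ± 0.18. The higher count of that list was 1 without either doxycycline library or uninduced B, 6 without control A or control B and 12 and 9 under the other scalings.

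Of 20 tested genes for interferon and nucleic acid sensing, 6 were higher and 2 lower, against 13.8% and 18.1% over all genes. The other 12 were not called. Ddx58, the gene of the RNA sensor RIG-I, was higher by 1.35 ± 0.20, with 2.87 and 4.14 CPM with doxycycline against 8.93 and 8.97 without and overlapping transient groups. Eif2ak2, the gene of the double-stranded RNA kinase PKR, was higher by 1.22 ± 0.16 and Ifitm3, an antiviral membrane protein gene, by 1.05 ± 0.16. Stat2, a mediator of interferon signals, differed by -1.23 ± 0.15. The lower count of this list was 1 without any 1 of mDux B and the 4 stable libraries.

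Markers of other lineages were low or mixed. Their counts come from small lists and stand beside shares over all genes of 18.1% lower and 13.8% higher. Trophectoderm (16.7% and 16.7%) was near those shares. The endoderm list had 6 of 11 lower and 1 higher, but 4 lower and 4 higher under both other scalings, and its summed level was 544 and 527 CPM with mDux, 626 and 585 in the controls, 265 and 251 with doxycycline and 279 and 264 without. Sox17 was called lower at levels of 0.265 to 2.56 CPM. Without uninduced A 3 of that list were lower. Trophectoderm had 2 of 12 lower and 2 higher, mesoderm 1 of 6 lower, neuroectoderm 2 of 6 lower, and the blood list 2 of 5 lower and 1 higher. In the epiblast list 4 of 10 were lower and 3 higher, and Sox3, a SOXB1 factor, differed by -5.34 ± 0.39, with 2.8 and 2.76 CPM with mDux, 1.94 and 1.55 in the controls, 18.6 and 19.5 with doxycycline and 0.331 and 0.242 without. Of 7 fibroblast genes 2 were lower and 1 higher, with a list sum of 830 to 1500 CPM over all libraries but the uninduced ones, which had 1900 and 1880. The defining fibroblast markers Col1a2 and Col3a1 did not pass the count filter, Col1a1 did not exceed 1.10 CPM in any library, and Thy1 differed by -3.38 ± 0.36. Counts of 1 to 3 in these lists moved by 1 or 2 genes on leaving out single libraries, among them the blood list, with 1 lower and none higher without doxycycline A or uninduced A. The part of such cells in the results was not tested.

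**Figure D4:**
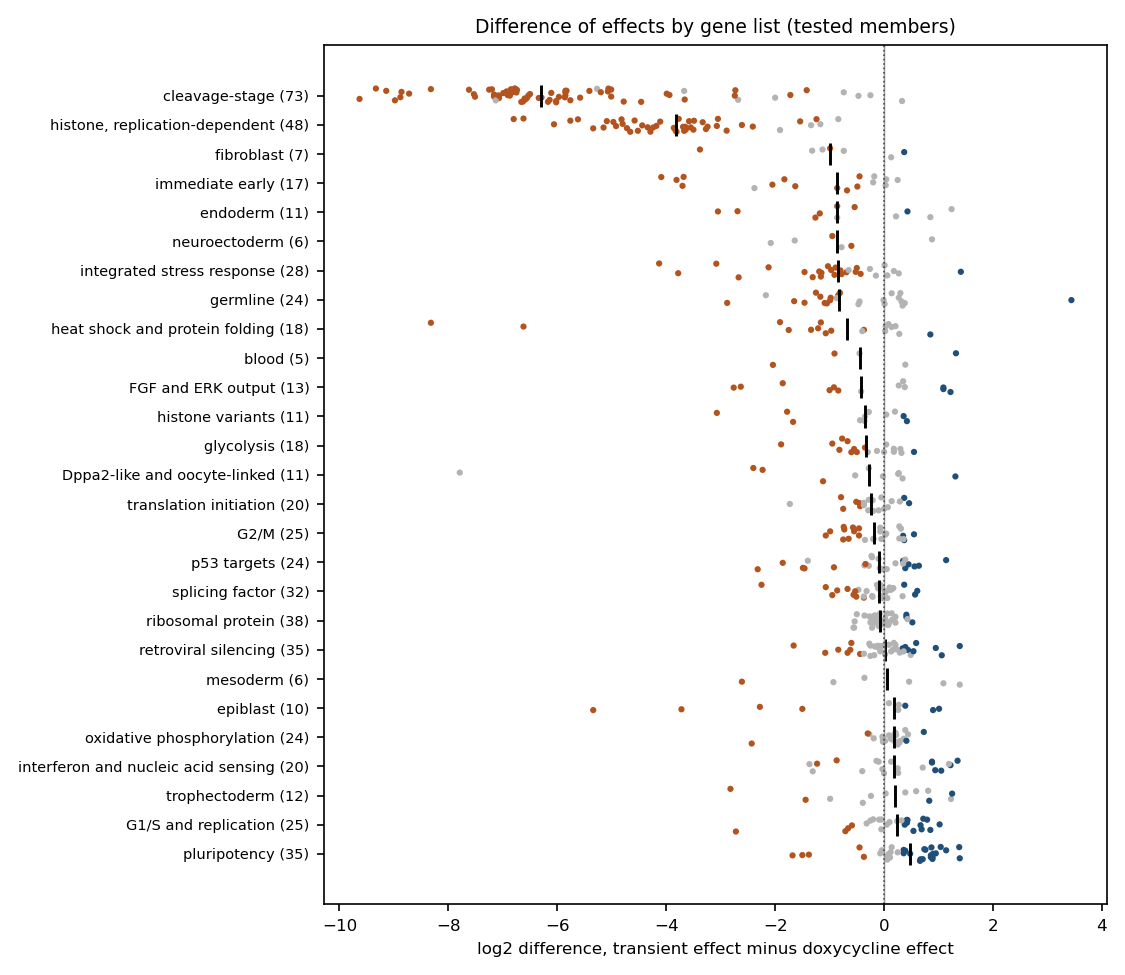
Log2 difference of effects (x axis) for each tested gene (points) of 27 gene lists with at least 5 tested genes, ordered by median, with brown for called lower, blue for called higher, grey for not called, a black bar at the list's median and a dotted line at the median of all genes, -0.01. The cleavage-stage list (median -6.29) and the replication-dependent histones (median -3.82) lie apart, and the pluripotency list has the highest median, 0.48.

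The 8 highest genes with at least 5 CPM on average differed by 2.17 to 2.68 on the log2 scale. Steap3, a metalloreductase gene of iron uptake, stood at 17.5 and 18.4 CPM with mDux, 14.8 and 17.6 in the controls, 7.12 and 7.30 with doxycycline and 29.8 and 31.5 without, a difference of 2.23 ± 0.19. Dpys, the gene of dihydropyrimidinase in pyrimidine breakdown, had 2.64 ± 0.21, Pou2f3, a POU factor, 2.41 ± 0.36, Sema3b, a semaphorin gene, 2.45 ± 0.39, Msc, a basic helix-loop-helix repressor, 2.17 ± 0.26, and Calhm5, of an ion channel family, 2.32 ± 0.30. In these 6 genes the doxycycline libraries lay below those without and the transient groups overlapped. Inhbb, the gene of an activin subunit, and Zfp72, a zinc-finger gene, differed by 2.68 ± 0.55 and 2.53 ± 0.28 with their groups in opposite order.

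Some joined genes were read in 1 table alone, with 50 reads or more in its 4 libraries and under 10 in those of the other: 168 in the transient and 476 in the stable table. Of the first 1 was called lower and none higher, and of the second 29 were lower and 1 higher. All these shares were below the 18.1% lower and 13.8% higher over all genes. Among genes read in 1 table alone, those with the most reads in the transient table were mitochondrial genes (mt-Nd5, mt-Nd2) and the snRNA gene Gm22973. In the stable table they were processed pseudogenes (Gm4149, Gm7536, Rps19-ps6). A difference of effects of such a gene rests on 1 set, and none of these 6 was called.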

How the data were processed

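The deposited tables hold whole-number counts per gene and repeat family, made by the authors. Per the submitters' processing notes, Novoalign 2.8, DESeq2 and mm10 were used, with no role or order given. The counting tool, strand setting and handling of multi-mapped reads were not given in the sources used here. Members and lists were chosen with earlier results of these data known. The tables were joined on the feature identifier. Of the joined genes, 16574 had equal and 8312 unequal lengths in the tables. Library size was the joined gene reads. Features passing edgeR's filterByExpr (minimum count 10, total 15) were fitted together in 4 groups with edgeR 4.0.16 in R 4.3.3 (quasi-likelihood F-test), with Benjamini-Hochberg adjustment over genes and over repeat families separately and a threshold of 0.05. A standard error is the size of the log2 difference divided by the square root of F, and n is 2 libraries per group throughout. TMM factors were estimated within each table, a choice made after seeing the data, since factors over both tables left the median of all genes at 0.17. A bound is computed against 3 counts over a group and covers counting error only. Intervals and floors are limited by depth, and PCR copies are not independent molecules.

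Genes were named by a rule: of called genes with 5 CPM or more that passed the filter in each table, the 8 lowest, the 8 highest, the 6 of each opposite order farthest from 0, up to 3 members of each list in its main direction and up to 2 in the other, and a fixed set of markers. Likewise named were 4 genes of each table read in 1 table alone, the 6 lowest and 6 highest repeat families, and fixed repeat families. Atf4, Col1a1, Dnajb1, Esrrb, Etv5, Hist1h1e, Hist1h4b, Hspa5, Hspa8, Klf2, Lmx1a, Obox6, Pramef8, Pramel6, Sall4, Snai1, Sox17, Zfp281, Zfp558 and Zfp750 fell outside it and were chosen after their values were seen. Rny3 and Rprl2 also fell outside the rule and were chosen after their values were seen. The fit was tested on simulated data. Alternatives were DESeq2 1.42.0, limma 3.58.1 (voom), other scalings, other filters, and leaving out each library. Gene names and coordinates are from GENCODE M21 on GRCm38 and promoters from RefSeq.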

Additional observations from a re-analysis of the deposited data

Results flagged for a closer look

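Opposite order was found in 792 genes (4.62% of those tested) with mDux above and doxycycline below and 768 (4.48%) the other way, of which 459 and 467 were called. The 12 genes given here are the 6 of each side farthest from 0 among called genes with 5 CPM or more. In each, both mDux libraries lay on one side of both controls and both doxycycline libraries on the other side of both libraries without. The difference of the effects passed the quasi-likelihood test of edgeR in each, after Benjamini-Hochberg adjustment. On the lower side Foxo6, a forkhead factor gene, stood at 4.07 and 3.92 CPM with mDux, 4.21 and 4.12 in the controls, 23.8 and 27.7 with doxycycline and 2.12 and 1.94 without, a log2 difference of -3.72. Its transient groups lay close together. Irx2, an Iroquois homeobox gene, stood at 21.7 and 20.6, 26.1 and 23.4, 49.3 and 57.9, and 5.09 and 4.97 CPM in the same order, a difference of -3.64. Per1, a circadian clock gene, stood at 9.35 and 8.56, 9.40 and 10.8, 82.2 and 101, and 14.5 and 13.5 CPM, a difference of -2.89. The histone genes Hist1h4d, Hist1h2ak and Hist2h4 differed by -3.69, -3.50 and -2.61.

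On the higher side stood the other 6 genes. Inhbb, an activin subunit gene, stood at 27.9 and 27.6 CPM with mDux, 21.6 and 23.5 in the controls, 0.115 and 0.296 with doxycycline and 1.39 and 0.909 without, a difference of 2.68. Socs2, a feedback inhibitor of cytokine signalling, stood at 48.0 and 48.9, 46.2 and 45.5, 16.0 and 16.4, and 65.3 and 68.2 CPM, a difference of 2.12. Its transient groups lay close together and its stable groups far apart. The zinc-finger gene Zfp72 differed by 2.53, Kirrel2, an immunoglobulin-family adhesion gene, by 2.14, the non-coding Pvt1 by 1.88 and Arrb1, a beta-arrestin gene, by 1.78. Neither the orders themselves nor their cause was tested.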

How the results depend on the processing

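Of the 157 named features, none of those called changed direction in a setting that tested it (135 of the 157 had a value among genes of equal length). Named features that were not called were not followed for direction. Among these are mitochondrial genes, and the median of the 3 tested turned from -0.08 to 0.3 without control A. Calls were lost by 2 with DESeq2, 5 with gene totals only and 4 with TMM over both tables, and by 18 without doxycycline B, 16 without uninduced B, 14 without uninduced A or mDux B, 13 without mDux A, 11 without doxycycline A, 1 without control B and none without control A. The count of higher genes, 2365, was 4453 with gene totals only and 3892 with TMM over both tables, since these settings shift all genes upward. It ranged from 1432 to 3282 on leaving out 1 library, and that of lower genes, 3112, from 2315 to 3947. With a 2-fold minimum, higher genes (715) numbered 1415 and 1229 under those scalings, 474 among genes of equal length and 551 to 909 without 1 library, and lower genes 1581 to 2049. Higher repeat families (10) numbered 6 with DESeq2, 19 and 18 under the scalings and 5 to 15 without 1 library, and lower ones 864 to 1007. Scaling over both tables, equal length and library sizes with repeats were added after seeing the data. Depth limits genes with a group at 0 reads, 518 of those tested, to bounds. No paired analysis was possible because the columns carry an index and no replicate number of the labels.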

Other observations

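Annotation classes differed in their share of called genes. Over all genes tested 18.1% were lower and 13.8% higher. Of 14131 protein-coding genes 19.3% were lower and 15.7% higher, of 1114 processed pseudogenes 8.62% and 3.32%, and of 169 snoRNA genes 16.6% and 1.78%. The lower shares of protein-coding and snoRNA genes were thus near that over all genes. Unprocessed pseudogenes, copies left by gene duplication, were lower in 35.6% of 90 cases with a median of -2.0 and higher in 3.33%. Some genes stayed outside the join, 2890 of the transient and 2704 of the unsorted table, and of these 24 and 154 had at least 50 reads, among them mt-Co1 and mt-Nd1 in the transient and Rps6-ps4 in the unsorted table.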
